A study of Mus musculus with 15 samples.

Results

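Lysosomal hydrolases, lysosomal membrane proteins and genes of autophagy were followed in the livers of mice given di(2-ethylhexyl) phthalate (DEHP). The list held 36 genes. Each was taken from the probe sets annotated with exactly 1 gene symbol, with the brightest probe set kept where a gene had several, and all 36 were measured among the 19938 genes that entered the fit. They comprised 7 proteases, 10 glycosidases, 5 genes for lipid hydrolases and their activator protein, 4 membrane proteins and 10 autophagy genes.

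DEHP is a plasticizer whose monoester metabolite activates PPARα, the nuclear receptor for fatty acids that the series sets beside the constitutive androstane receptor CAR. The 4 groups were PPARα-null mice (129S4/SvJae-Pparatm1Gonz/J) gavaged with 1150 mg/kg/day of DEHP in corn oil (3 animals), PPARα-null mice gavaged with corn oil alone (4 animals), wild-type mice (129S1/SvlmJ) gavaged with the same dose of DEHP (4 animals) and wild-type mice gavaged with corn oil alone (4 animals). All were males aged 7.5 months, dosed once a day for 4 days, and each gave 1 array of total liver RNA. The nulls lack the receptor in every tissue, and the 2 genotypes come from different substrains. Effects of substrain and of genotype cannot be told apart. Null animals are named here by the number on their label after KO, and wild-type animals by the number alone.

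Lysosomes are acidic organelles in which proteases, glycosidases and lipases break down what endocytosis and autophagy deliver. In autophagy a membrane closes around cytoplasm, fat droplets or organelles, peroxisomes included, and fuses with the lysosome. The transcription factor TFEB and its relatives raise many lysosomal and autophagy genes through the sequence CACGTG near the start site, and work in mouse liver places both TFEB and PPARα among the regulators of autophagy genes in fasting.

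Promoters in the RefSeq tables (build GRCm38.p6) were searched on both strands for CACGTG, in a window of 250 bases before to 50 bases after the annotated start. Of the 36 genes 31 were matched to these tables, and Ctsb, Ctsh, Asah1, Becn1 and Atg12 were not searched. CACGTG lay in the promoter of 10 of these 31 genes (32.3%), against 8.09% of all 27025 genes with a promoter in the tables. The 10 genes were Atg5, Atg7, Ctsa, Ctsd, Ctsl, Gaa, Gla, Glb1, Lamp1 and Mcoln1. The longer form TCACGTGA, which contains CACGTG, lay in 4 of them (Ctsa, Ctsd, Gla and Mcoln1), which is 12.9% of 31 against 1.12% of all genes. The full CLEAR element, which extends TCACGTGA by 1 base on each side, lay in 0 of 31 and in 0.37% of all genes. The DR1 repeat, the idealized binding site of PPARα with its partner RXR, lay in 0 of 31 and in 0.0481% of all genes. A match describes the letters in this window and is neither a bound site nor a cause of any difference below. The stretches are shown for a glycosidase that was higher after DEHP in wild-type mice, for a pair of proteases that were higher in null mice under DEHP, and for the lipase that was called in both genotypes and has no CACGTG in the window. Capitals mark CACGTG.
Gaa, chr11:119267763-119267882, plus strand, 200 to 81 bases before the start: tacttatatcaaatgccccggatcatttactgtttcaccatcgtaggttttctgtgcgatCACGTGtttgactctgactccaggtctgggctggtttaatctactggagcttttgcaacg
Ctsl, chr13:64370651-64370770, minus strand, 250 to 131 bases before the start: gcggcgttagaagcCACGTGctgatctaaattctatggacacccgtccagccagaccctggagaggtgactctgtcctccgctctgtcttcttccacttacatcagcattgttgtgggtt
Ctsa, chr2:164833653-164833772, plus strand, 120 to 1 bases before the start: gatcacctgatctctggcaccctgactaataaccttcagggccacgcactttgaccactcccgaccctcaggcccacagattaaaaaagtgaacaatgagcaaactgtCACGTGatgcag
Lipa, chr19:34527475-34527594, minus strand, 120 to 1 bases before the start: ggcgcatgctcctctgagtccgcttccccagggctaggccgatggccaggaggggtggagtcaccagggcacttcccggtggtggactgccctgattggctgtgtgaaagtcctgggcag

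Values are log2 of the deposited intensity. Differences are limma estimates ± standard error with p adjusted by Benjamini-Hochberg over all 19938 genes. The words rose, fell and differed stand only where that adjusted p was below 0.05. Array medians of intensity ran from 44.4 to 47.5, and arrays of 1 group correlated at 0.988 to 0.992 across probe sets, which are not independent replicates. Ppara read 9.11 to 9.27 in null mice given DEHP, 8.99 to 9.24 in null controls, 9.55 to 10.22 in wild-type mice given DEHP and 9.64 to 9.88 in wild-type controls. The null groups were lower by limma, under DEHP (-0.64 ± 0.13, adjusted p = 0.00422) and under corn oil (-0.69 ± 0.12, adjusted p = 0.00645). Where the probe set lies within the gene is not given, so its signal in null mice does not check the labels further. The PPARα target Cyp4a10, a fatty acid hydroxylase, read 4.91 to 5.21 in null mice given DEHP against 4.86 to 5.87 in null controls, and 11.65 to 11.74 in wild-type mice given DEHP against 8.16 to 9.27 in wild-type controls. Hepatocyte markers were bright in every array (albumin averaged an intensity of 15378). Some markers of other cells were dim, with average intensities under every array median for Ncr1 (14), Aif1 (38) and Epcam (41).

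The first comparison asked what DEHP did to these genes where PPARα was present. In wild-type livers 5 of the 36 genes rose and 0 fell, which is 13.9% of them, against 3.86% of all genes called in either direction (2.29% higher, 1.57% lower). The 5 were the glycosidases Gaa and Hexa, the lipid hydrolases Asah1 and Lipa, and the autophagy gene Atg12, and their rises were between 1.17-fold and 1.49-fold. None of the 7 proteases and none of the 4 membrane proteins passed the test. All 36 genes averaged a log2 of 6.25 (Galc) or more, above the median of 5.96 over all genes. The share over all genes thus includes dim genes unlike any of the 36. With dim genes (mean under 5.96) left out, 9 of the 36 were higher and 2 lower, against 1101 of 9969 genes called in either direction. At an unadjusted p below 0.05 stood 17 of the 36 genes, against 3341 of all 19938, and 15 of the 36 had DEHP and corn oil animals that did not overlap (10 higher, 5 lower), against 11.9% of all genes (6.1% higher, 5.77% lower).

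Gaa encodes acid α-glucosidase, which degrades glycogen in the lysosome. It read 9.87, 9.99, 10.05 and 9.77 in the 4 wild-type mice given DEHP, against 9.54, 9.64, 9.61 and 9.51 in the wild-type controls. All DEHP animals were above all controls, and the gene rose by 0.34 ± 0.06 (1.27-fold, adjusted p = 0.00561). Hexa, the α subunit of the β-hexosaminidase that degrades gangliosides, read 8.88, 8.89, 9.13 and 9.31 with DEHP, against 8.55, 8.33, 8.51 and 8.54 with corn oil. Its groups were also apart, with the DEHP animals more scattered than the controls, and the rise was 0.57 ± 0.12 (1.49-fold, adjusted p = 0.0121). These 2 calls held without each animal in turn, with adjusted p of at most 0.0232 for Gaa and 0.0481 for Hexa. The other 8 glycosidases were not called. Of these Man2b1, lysosomal α-mannosidase, read 9.68, 9.67, 9.64 and 9.45 with DEHP, against 9.71, 9.91, 9.81 and 9.79 with corn oil. Its DEHP animals were all below the controls (-0.19 ± 0.06, adjusted p = 0.116).

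Among the lipid enzymes, Asah1, the acid ceramidase, read 8.34, 8.34, 8.25 and 8.23 in wild-type mice given DEHP, against 7.94, 7.998, 8.004 and 8.05 in controls. The groups did not overlap, and it rose by 0.29 ± 0.07 (1.22-fold, adjusted p = 0.0208). Lipa, the lysosomal acid lipase that hydrolyses cholesteryl esters and triglycerides, read 10.95, 10.88, 10.92 and 10.76 with DEHP, against 10.59, 10.79, 10.60 and 10.56 with corn oil. Control 53 lay inside the range of the DEHP animals, and the rise was 0.24 ± 0.06 (1.19-fold, adjusted p = 0.0466). Neither call held without each animal in turn. The Asah1 call was lost without control 52, 53 or 54 or DEHP animal 56 or 57 (adjusted p up to 0.0623), and the Lipa call without control 52, 54 or 55 or DEHP animal 56, 57 or 58 (up to 0.131). The Lipa call also ended after quantile normalization (adjusted p = 0.0807), after median centring (0.0625) and when only the wild-type groups were fitted (0.098). Smpd1, the acid sphingomyelinase, read -0.03 ± 0.06 (adjusted p = 0.874).

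The proteases went both ways without a call. Ctsd, the aspartic protease cathepsin D, read 11.63, 11.65, 11.79 and 11.52 with DEHP, against 11.41, 11.40, 11.38 and 11.50 with corn oil. The 2 groups did not overlap, and the difference was 0.23 ± 0.06 (adjusted p = 0.053). It passed the threshold when dim genes were left out (adjusted p = 0.0185), with a trended, robust spread (0.0213) and without DEHP animal 59 (0.0305). Tpp1, a tripeptidyl peptidase, read 9.66, 9.70, 9.68 and 9.45 with DEHP, against 9.74, 9.94, 9.83 and 9.93 with corn oil. Here the DEHP animals were the lower ones (-0.24 ± 0.08, adjusted p = 0.112). The cysteine proteases Ctsb, Ctsl and Ctsz and the carboxypeptidase Ctsa, which also shields lysosomal galactosidase and neuraminidase, lay between -0.11 and 0.07.

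The membrane proteins stood below their controls in all 4 cases and none was called. Lamp1, the most widely used marker protein of the lysosomal membrane, read 11.64, 11.61, 11.60 and 11.55 with DEHP, against 11.68, 11.73, 11.69 and 11.70 with corn oil. Its groups did not overlap, at a difference of -0.10 ± 0.05 (adjusted p = 0.29). Its relative Lamp2, needed for chaperone-mediated autophagy, read 11.66, 11.64, 11.46 and 11.62 with DEHP, against 11.64, 11.73, 11.66 and 11.61 with corn oil, with overlap (-0.06 ± 0.06, adjusted p = 0.709).

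Of the 10 autophagy genes, Atg12, a ubiquitin-like protein that is joined to Atg5 while the autophagosome forms, was the single call. It read 8.24, 8.26, 8.21 and 8.34 with DEHP, against 8.11, 7.96, 8.02 and 8.07 with corn oil. The groups were apart and the rise was 0.22 ± 0.06 (1.17-fold, adjusted p = 0.0477), but the call was lost without any 1 of the 8 wild-type animals (adjusted p 0.0589 to 0.151). It also ended after quantile normalization (0.0544), after median centring (0.0771) and with the wild-type groups fitted alone (0.0676). Ulk1, the kinase that starts autophagy, read 8.27, 8.26, 8.43 and 8.27 with DEHP, against 8.70, 8.56, 8.54 and 8.51 with corn oil. All DEHP animals were lower, at -0.27 ± 0.09 (adjusted p = 0.119). Tfeb, the regulator itself, read 6.36, 6.47, 6.26 and 6.29 with DEHP, against 6.45, 6.48, 6.38 and 6.28 with corn oil, and the values overlapped (-0.05 ± 0.07, adjusted p = 0.80). Sqstm1, the cargo receptor p62, overlapped at -0.02 ± 0.06 (adjusted p = 0.91), and so did Map1lc3b, which encodes the autophagosome protein LC3B, at 0.11 ± 0.08 (0.599). A second probe set of Map1lc3b read 0.12 where the one used read 0.11.

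**Figure D1:**
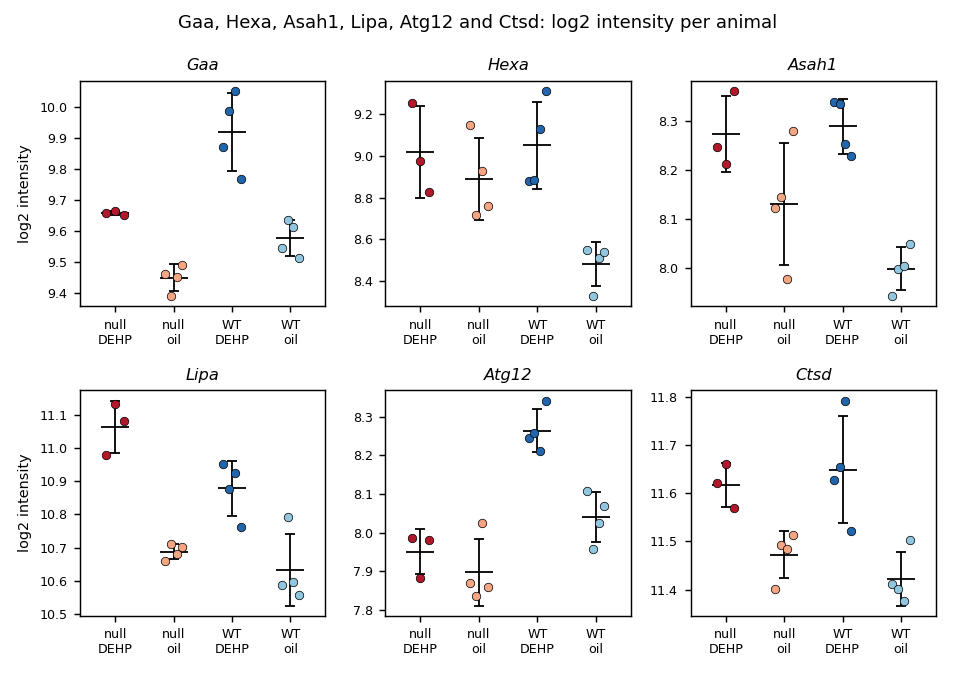
Log2 intensity of Gaa, Hexa, Asah1, Lipa, Atg12 and Ctsd in each animal, 1 point per animal, with the mean and SD of each group as bars (WT, wild type; oil, corn oil). Gaa lay between 9.77 and 10.05 in wild-type mice given DEHP, above the 9.51 to 9.64 of wild-type controls, and Lipa was highest in null mice given DEHP, at 10.98 to 11.13.

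The split of calls into higher and lower depended on the scaling of the arrays. After quantile normalization 3 genes rose in wild-type mice (Gaa, Hexa and Asah1) and 3 fell (Tpp1, Man2b1 and Lamp1), beside 5 and 0 in the deposited scaling. With dim genes left out, which keeps all 36 members but tests fewer genes, 9 rose and 2 fell (Tpp1 and Man2b1). In that setting 1101 of 9969 genes were called (597 higher). Median differences by class are given without a test. They were 0.224 for glycosidases, 0.244 for lipid hydrolases and activator, -0.054 for proteases, -0.083 for membrane proteins and 0.048 for autophagy genes, beside -0.015 over all genes. Over the 36 genes the median was 0.069, with 0.038 after quantile normalization and 0.037 without DEHP animal 58. The 17 genes not named by rule ran from -0.15 (Mcoln1) to 0.30 (Idua), and 0 of them were called. In bulk liver, fewer cells of a type and less RNA per cell cannot be told apart. Beside these results 0 of 13 macrophage and Kupffer cell markers were called, with a summed intensity of 2751 to 4088 with DEHP and 2968 to 3450 with corn oil. Of 8 sinusoidal endothelial markers 1 fell (Stab2, -0.33), and their sum was 2540 to 2844 with DEHP and 2859 to 3217 with corn oil. Of 8 stellate cell markers 1 fell (Reln, -0.50), with sums of 2283 to 2478 with DEHP and 2345 to 2648 with corn oil, and of 9 hepatocyte markers 1 fell (Cps1, -0.34), with sums of 82023 to 85914 with DEHP and 85420 to 86989 with corn oil. Of 8 lymphocyte and neutrophil markers 1 rose (S100a8, 1.78), with sums of 273 to 351 with DEHP and 213 to 238 with corn oil, which do not overlap. These sums include S100a8, the brightest of the 8. By estimate 4 of the 8 were above 0 and 4 below, with a median of -0.004. Of 4 bile duct markers 0 were called, with sums of 199 to 440 with DEHP and 200 to 220 with corn oil. The part of these cells in the results was not tested.

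In null livers the comparison asked the same of mice without PPARα, with 3 animals given DEHP and 4 controls. Of the 36 genes 1 rose, Lipa, and 0 fell, against 0.471% of all genes called in either direction (0.16% higher, 0.311% lower). At an unadjusted p below 0.05 stood 11 genes, against 2450 of all 19938, and 12 of 36 had groups that did not overlap, all 12 higher with DEHP, against 9.99% of all genes (5.57% higher, 4.42% lower). Estimates were above 0 for 33 of 36 genes, against 10883 of all 19938, with a median of 0.131 beside 0.014 over all genes. These signs come from the same few animals and are not independent of each other. After quantile normalization 28 of 36 were above 0 and the median was 0.081, beside 0.004 over all genes. By class the medians were 0.177 for proteases, 0.131 for glycosidases, 0.133 for lipid hydrolases and activator, 0.022 for membrane proteins and 0.098 for autophagy genes. Over all genes 32 of 94 calls were rises, against 31 of 161 after quantile normalization and 17 of 34 after median centring. Of 8 sinusoidal endothelial markers 0 were called and 8 were above 0 (median 0.127), with sums of 3227 to 3516 in null mice given DEHP and 2907 to 3225 in null controls, which do not overlap. Of 13 macrophage and Kupffer cell markers 0 were called and 9 were above 0, with sums of 3641 to 4490 with DEHP and 3518 to 4406 with corn oil. The 8 stellate, 8 lymphocyte and neutrophil, 4 bile duct and 9 hepatocyte markers also had 0 calls. The part of these cells in the shift was not tested.

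Lipa read 10.98, 11.13 and 11.08 in null mice given DEHP, against 10.66, 10.71, 10.68 and 10.70 in null controls. The groups were well apart, and the rise was 0.38 ± 0.07 (1.30-fold, adjusted p = 0.0329). The call was lost without control KO-115, KO-117 or KO-118 or DEHP animal KO-122 or KO-123 (adjusted p up to 0.172). It was also lost after median centring (0.0501) and when only the null groups were fitted (0.231). Every other gene below is given as a value that did not pass the test.

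Of the 7 proteases 6 had null DEHP animals that were all above the null controls. Ctsb read 11.65, 11.75 and 11.65 with DEHP, against 11.49, 11.49, 11.52 and 11.53 with corn oil (0.18 ± 0.06, adjusted p = 0.186). Ctsl, cathepsin L, read 11.66, 11.74 and 11.65 with DEHP, against 11.54, 11.42, 11.43 and 11.62 with corn oil (0.18 ± 0.07, adjusted p = 0.253). The separation was narrow in Ctsl, where control KO-118 came close to the DEHP animals. Ctsz read 12.07, 12.16 and 11.98 with DEHP, against 11.77, 11.95, 11.91 and 11.95 with corn oil (0.17 ± 0.07, adjusted p = 0.284). Ctsa read 10.25, 10.20 and 10.08 with DEHP, against 9.92, 9.95, 9.997 and 10.03 with corn oil (0.20 ± 0.06, adjusted p = 0.16). Ctsd read 0.14 ± 0.07 (adjusted p = 0.397), and Tpp1 overlapped between the groups (0.05 ± 0.08, adjusted p = 0.858).

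Gaa read 9.66, 9.67 and 9.65 in null mice given DEHP, against 9.46, 9.39, 9.45 and 9.49 in null controls. The DEHP animals lay within 0.02 of each other and above all controls (0.21 ± 0.07, adjusted p = 0.191). Hexa read 9.26, 8.98 and 8.82 with DEHP, against 9.15, 8.72, 8.93 and 8.76 with corn oil, and its 2 groups overlapped (0.13 ± 0.13, adjusted p = 0.757). Asah1 also overlapped (0.14 ± 0.07, adjusted p = 0.447), and Man2b1 read 0.03 ± 0.07 (adjusted p = 0.928).

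The membrane proteins Lamp1 and Lamp2 read 0.04 ± 0.05 and 0.01 ± 0.07 in null mice, and both signs turned after quantile normalization (-0.063 and -0.08, uncalled). Sqstm1 read 11.79, 11.91 and 11.78 with DEHP, against 11.69, 11.57, 11.65 and 11.59 with corn oil, without overlap (0.20 ± 0.07, adjusted p = 0.201). Tfeb read 6.40, 6.26 and 6.51 with DEHP, against 6.39, 6.48, 6.40 and 6.39 with corn oil (-0.02 ± 0.07, adjusted p = 0.938). Atg12, Ulk1 and Map1lc3b overlapped, at 0.05, 0.09 and 0.13. The 17 genes given by range ran from -0.12 (Mcoln1) to 0.29 (Gusb, β-glucuronidase).

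**Figure D2:**
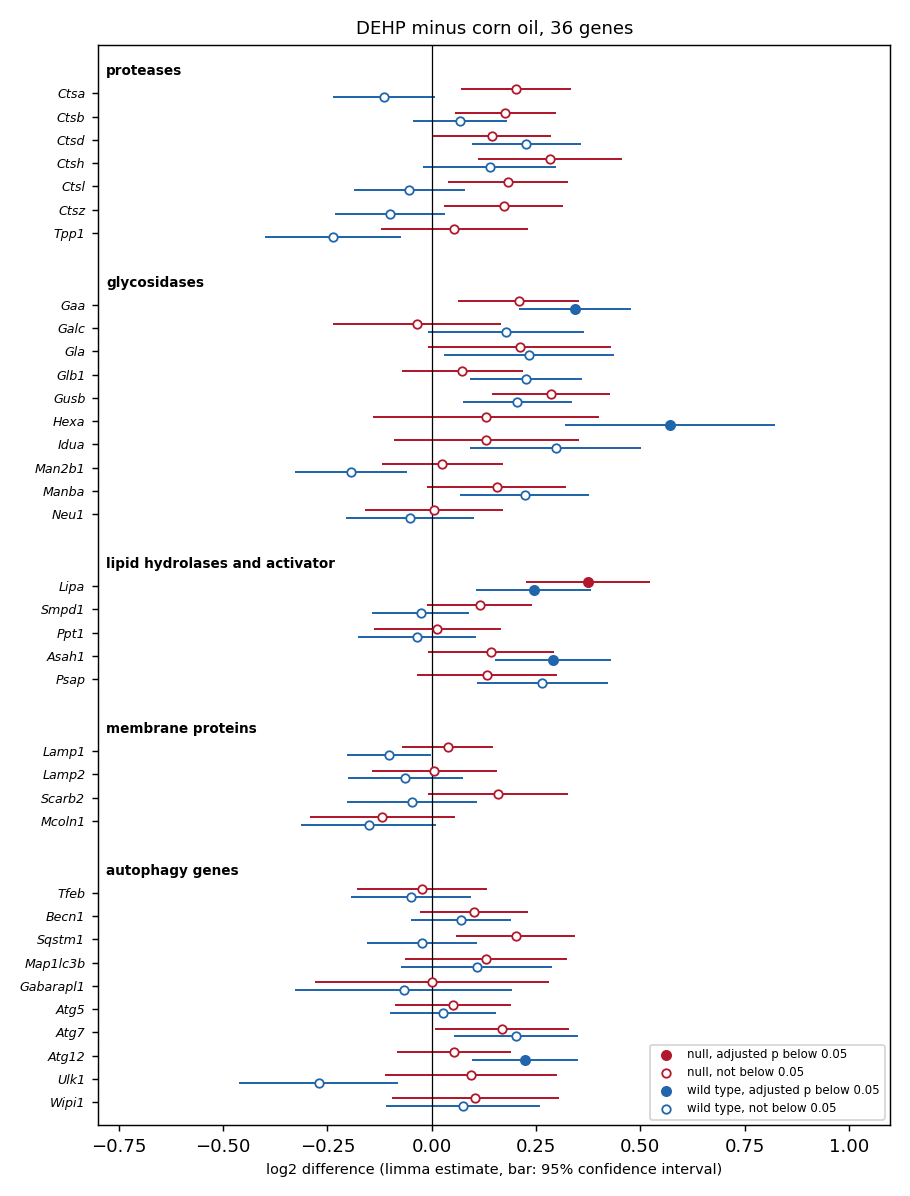
Log2 difference of DEHP minus corn oil for the 36 genes by class, in null mice (red) and wild-type mice (blue), with 95% confidence intervals as bars and filled points where the adjusted p was below 0.05. In wild-type mice Gaa, Hexa, Asah1, Lipa and Atg12 are filled, and in null mice Lipa is. Of the 36 red points 33 lie above 0, against 10883 of all 19938 genes.

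Whether the DEHP effect differed between genotypes was tested as an interaction, the null effect minus the wild-type effect. Of the 36 genes 0 passed by limma, against 0.898% of all genes (0.336% above 0, 0.562% below), and 8 of the 36 stood at an unadjusted p below 0.05, against 2669 of all 19938. Ctsa had the smallest p, with a difference of 0.32 ± 0.08 (95% interval 0.14 to 0.50, adjusted p = 0.0845). It passed the threshold with dim genes left out and with a trended, robust spread, and was the sole gene of the 36 to do so in either. Ulk1 read 0.36 ± 0.13 (adjusted p = 0.221), Tpp1 0.29 ± 0.11 (0.26) and Ctsz 0.27 ± 0.09 (0.181). Hexa went the other way, at -0.44 ± 0.17 (adjusted p = 0.27). For Lipa the difference was 0.13 ± 0.10 with an interval of -0.07 to 0.33, and for Gaa -0.13 ± 0.09 with an interval of -0.33 to 0.06. A loss in null mice of the whole wild-type rise (0.24 for Lipa, 0.34 for Gaa) would lie below both intervals, though only just for Gaa. Smaller differences lie within them, and for Lipa so does a larger rise in null mice. These intervals are not adjusted for the number of genes. The DEHP effects on Lipa and Gaa are thus shown neither to differ between genotypes nor to be alike. The 17 genes given by range ran from -0.21 (Galc) to 0.21 (Scarb2).

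Set side by side under corn oil, null and wild-type livers differed in 0 of the 36 genes by limma, against 1.19% of all genes (0.642% higher, 0.547% lower), and 4 of 36 had an unadjusted p below 0.05, against 2383 of all 19938. Groups did not overlap in 5 of 36 genes (3 higher in null, 2 lower), against 7.72% of all genes (4.06% higher, 3.67% lower), and the median difference was 0.03. Hexa had the largest estimate, with 9.15, 8.72, 8.93 and 8.76 in null controls against 8.55, 8.33, 8.51 and 8.54 in wild-type controls. It was higher in every null control than in every wild-type one (0.41 ± 0.12, adjusted p = 0.123). Ctsl read 11.54, 11.42, 11.43 and 11.62 in null controls against 11.40, 11.31, 11.32 and 11.23 in wild-type controls (0.19 ± 0.06, adjusted p = 0.204). Its null controls again lay above all wild-type controls, by a narrow margin. Gaa was lower in null controls (-0.13 ± 0.06, adjusted p = 0.449), and Lipa read 0.05 ± 0.06 (0.818). Tfeb, Sqstm1, Lamp1 and Lamp2 lay between -0.03 and 0.03.

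Under DEHP more of the 36 genes were called between genotypes than under corn oil. The interaction, which also tests whether the genotype difference changed with DEHP, passed for 0 of the 36. Compared with wild-type mice given DEHP, null mice given DEHP were higher in 9 of the 36 genes and lower in 2, together 30.6%, against 10.7% of all genes called in either direction (5.09% higher, 5.61% lower). Of the 9 genes 5 were proteases (Ctsa, Ctsb, Ctsl, Ctsz and Tpp1, out of 7), and the others were Man2b1, Smpd1, Sqstm1 and Ulk1. The lower ones were Gaa and Atg12. With dim genes left out 11 of the 36 were higher and 3 lower, against 2766 of 9969 genes called in either direction (1414 higher). At an unadjusted p below 0.05 stood 17 genes, against 4588 of all 19938. Groups did not overlap in 16 of 36 genes (13 higher in null, 3 lower), against 20.5% of all genes (11% higher, 9.51% lower). The wild-type DEHP arrays are the same as in the first comparison, so the 2 sets of results are not independent.

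Ctsl read 11.66, 11.74 and 11.65 in null mice given DEHP, against 11.32, 11.24, 11.17 and 11.32 in wild-type mice given DEHP. The lowest null value was above the highest wild-type value by more than the spread within either group, and the difference was 0.42 ± 0.07 (1.34-fold, adjusted p = 0.000906). Ctsz, a carboxypeptidase, read 12.07, 12.16 and 11.98 in null against 11.76, 11.77, 11.79 and 11.63 in wild type (0.33 ± 0.07, 1.26-fold, adjusted p = 0.00445). Its groups were apart, and the calls of Ctsl and Ctsz held without each animal in turn. Tpp1 read 9.91, 10.06 and 9.91 in null against 9.66, 9.70, 9.68 and 9.45 in wild type, with wild-type animal 59 far below the rest (0.34 ± 0.08, 1.26-fold, adjusted p = 0.0154). The Tpp1 call was lost without null animal KO-122 (0.0964).

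Ctsa read 10.25, 10.20 and 10.08 in null mice given DEHP, against 10.04, 9.94, 9.97 and 9.89 in wild-type mice given DEHP. The gap between the groups was small, and the difference was 0.22 ± 0.06 (1.16-fold, adjusted p = 0.0353). Ctsb, cathepsin B, read 11.65, 11.75 and 11.65 in null, against 11.58, 11.44, 11.53 and 11.45 in wild type (0.19 ± 0.06, 1.14-fold, adjusted p = 0.0482). These were the least firm of the protease calls. That of Ctsa was lost without wild-type animal 57, 58 or 59 or null animal KO-121 or KO-122 (adjusted p up to 0.138), and that of Ctsb without any animal but wild-type 56 (up to 0.208). Ctsa also lost its call after quantile normalization (0.0531), after median centring (0.0562) and with the DEHP groups fitted alone (0.114), and Ctsb after median centring (0.0999) and with the DEHP groups alone (0.144). Ctsd did not pass (-0.03 ± 0.07, adjusted p = 0.843).

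Man2b1 read 9.99, 9.90 and 9.97 in null mice given DEHP, against 9.68, 9.67, 9.64 and 9.45 in wild-type mice given DEHP. Every null animal was above every wild-type one (0.34 ± 0.07, 1.27-fold, adjusted p = 0.00433), also with each animal left out. Gaa was the reverse, with 9.66, 9.67 and 9.65 in null against 9.87, 9.99, 10.05 and 9.77 in wild type (-0.26 ± 0.07, 0.834-fold, adjusted p = 0.0214). The Gaa call was lost without wild-type animal 57 or 58 or any null animal (up to 0.0717), and with the DEHP groups alone (0.089). Hexa did not pass (-0.03 ± 0.13, adjusted p = 0.924). Smpd1 read 9.68, 9.71 and 9.76 in null against 9.53, 9.55, 9.46 and 9.48 in wild type (0.21 ± 0.06, 1.16-fold, adjusted p = 0.0312). Its animals were tightly grouped, yet the call was lost without wild-type animal 56, 58 or 59 or null animal KO-122 or KO-123 (up to 0.1), after median centring (0.0939) and with the DEHP groups alone (0.0768). Lipa had groups that did not overlap (0.19 ± 0.07, adjusted p = 0.111), and Asah1 read -0.02 ± 0.07 (0.934).

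Among the autophagy genes, Ulk1 read 8.75, 8.75 and 8.55 in null mice given DEHP, against 8.27, 8.26, 8.43 and 8.27 in wild-type mice given DEHP. Wild-type animal 58 and null animal KO-123 came nearest to each other, and the difference was 0.37 ± 0.10 (1.30-fold, adjusted p = 0.0206). Sqstm1 read 11.79, 11.91 and 11.78 in null against 11.53, 11.66, 11.68 and 11.47 in wild type (0.24 ± 0.07, 1.18-fold, adjusted p = 0.0296). The Ulk1 call was lost without wild-type animal 56 or 59 or null animal KO-121 or KO-122 (up to 0.103), and the Sqstm1 call without wild-type animal 56 or 59 or null animal KO-122 (up to 0.153) and with the DEHP groups alone (0.103). Atg12 read 7.99, 7.88 and 7.98 in null against 8.24, 8.26, 8.21 and 8.34 in wild type. It was lower in every null animal (-0.31 ± 0.06, 0.805-fold, adjusted p = 0.00506), and this call held without each animal. Tfeb, Map1lc3b, Lamp1 and Lamp2 did not pass, at 0.05, -0.12, 0.11 and 0.10. The 17 genes given by range ran from -0.23 (Manba) to 0.20 (Gusb). Without null animal KO-122 the count of higher genes was 3 and without wild-type animal 59 it was 4, in place of 9, and it was 5 higher and 1 lower with the DEHP groups alone.

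**Figure D3:**
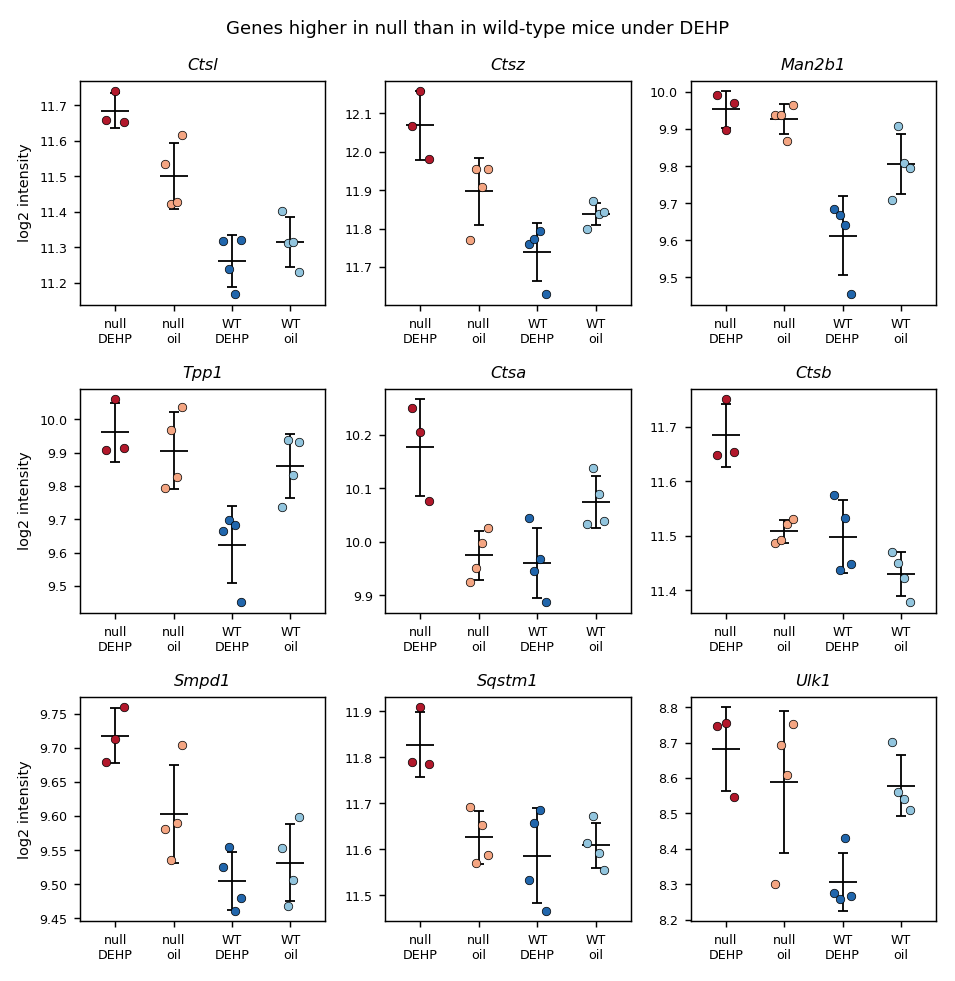
Log2 intensity per animal of the 9 genes that were higher in null than in wild-type mice under DEHP, 1 point per animal, with the mean and SD of each group as bars (WT, wild type; oil, corn oil). Ctsl lay at 11.65 to 11.74 in null mice given DEHP and at 11.17 to 11.32 in wild-type mice given DEHP, and over the 9 genes the difference between null and wild-type controls ran from -0.10 to 0.19.

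**Figure D4:**
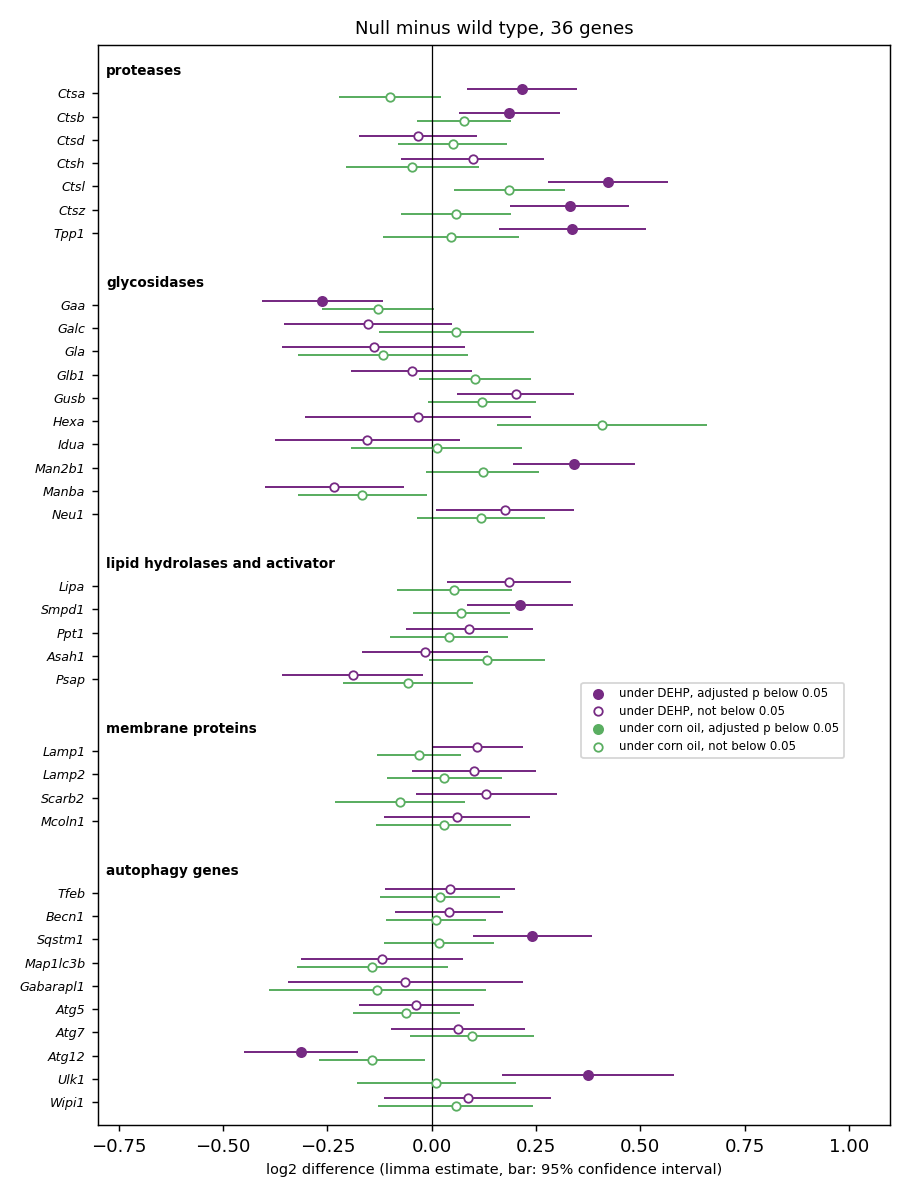
Log2 difference of null minus wild type for the 36 genes by class, under DEHP (purple) and under corn oil (green), with 95% confidence intervals as bars and filled points where the adjusted p was below 0.05. Under DEHP 11 points are filled, 9 above and 2 below 0, and under corn oil 0 are.

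Markers of other liver cells were set beside the genotype comparisons, under DEHP and under corn oil. Of 13 macrophage and Kupffer cell markers 1 was higher in null mice given DEHP (Csf1r, 0.44, adjusted p = 0.0193), and 12 of 13 had estimates above 0. Their summed intensity was 3641 to 4490 in null and 2751 to 4088 in wild-type mice given DEHP, beside 3518 to 4406 in null and 2968 to 3450 in wild-type controls. Under corn oil 1 of these 13 was called, higher in null mice, and 13 of 13 were above 0 (median 0.277). Of 8 sinusoidal endothelial markers 5 were higher in null (Stab2, 0.49, had the smallest adjusted p), with sums of 3227 to 3516 in null and 2540 to 2844 in wild-type mice given DEHP. Under corn oil 0 of these 8 were called, with sums of 2907 to 3225 in null and 2859 to 3217 in wild-type controls. Of 8 stellate cell markers 3 were higher in null, with sums of 2736 to 3662 in null and 2283 to 2478 in wild type. Under corn oil 0 of these 8 were called, but 8 of 8 were above 0 (median 0.33). The stellate sums of controls were 2830 to 4067 in null and 2345 to 2648 in wild type, which do not overlap. Of 9 hepatocyte markers 1 was higher (Hnf4a, 0.33), with sums of 85815 to 92564 in null and 82023 to 85914 in wild type. Of 8 lymphocyte and neutrophil markers 1 was higher (Ly6g, 0.30), with sums of 246 to 301 in null and 273 to 351 in wild type, and of 4 bile duct markers 0 were called. The part of these cells in the result was not tested.

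Seen per animal, the classes did not run in parallel. The median deviation of the 7 proteases from their means over all arrays was 0.107 to 0.232 in null mice given DEHP and -0.104 to 0.025 in null controls, while it was -0.103 to 0.006 in wild-type mice given DEHP and -0.073 to -0.032 in wild-type controls. For the 10 glycosidases it was 0.016 to 0.101 in null mice given DEHP and -0.102 to -0.009 in null controls, and 0.053 to 0.132 in wild-type mice given DEHP and -0.12 to -0.022 in wild-type controls. DEHP and corn oil animals were thus apart for the glycosidases in both genotypes, and for the proteases in null mice alone, as a description of these medians with no test. The autophagy genes were also apart in null mice (0.026 to 0.057 with DEHP, -0.086 to -0.03 with corn oil), and not in wild-type mice. The lipid hydrolases and activator were apart in wild-type mice (0.032 to 0.125 with DEHP, -0.118 to -0.038 with corn oil), and overlapped in null mice. The 4 membrane proteins were at -0.127 to -0.036 in wild-type mice given DEHP and -0.004 to 0.048 in wild-type controls, and overlapped in null mice.

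**Figure D5:**
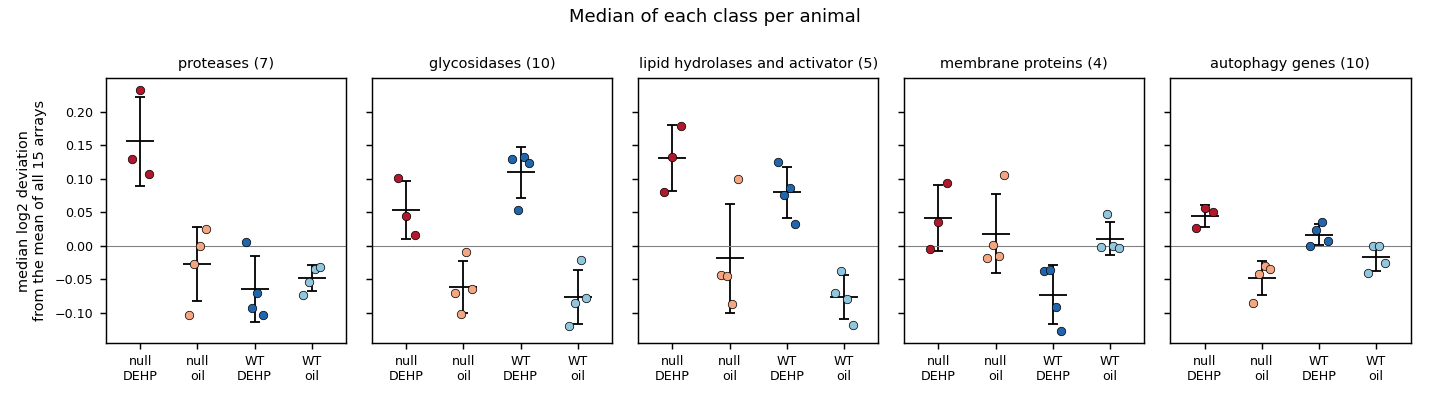
Median log2 deviation of each gene class from its genes' means over all 15 arrays, 1 point per animal, with the mean and SD of each group as bars and the number of genes in each title. Proteases are at 0.107 to 0.232 in null mice given DEHP and at or below 0.025 in every other animal, and glycosidases are above 0 in every animal given DEHP.

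Beyond the 36 genes, lists of other hydrolases, proton pump subunits, membrane and sterol transport proteins, sorting proteins, autophagy machinery and regulators held 111 measured genes. With DEHP in wild-type mice 3 of them rose and 5 fell, which is 7.21% of the 111 genes against 3.86% of all genes. Scpep1, a serine carboxypeptidase, rose by 0.34 ± 0.07 (adjusted p = 0.00844), and Map1lc3a, a relative of Map1lc3b, by 0.38 ± 0.08 (0.00998). Sesn2, a stress-induced inhibitor of mTORC1, rose by 0.34 ± 0.08 (0.019). The falls were in the lysosomal chloride-proton exchanger Clcn7 (-0.41 ± 0.07, adjusted p = 0.00414), the cation channel Tpcn1 (-0.28 ± 0.07, 0.0269), the cystine exporter Ctns (-0.45 ± 0.11, 0.0359), the folliculin gene Flcn (-0.50 ± 0.11, 0.0214) and the transcription factor Foxo1 (-0.27 ± 0.07, 0.0351). Scpep1, Map1lc3a and Clcn7 kept their calls without each animal, and the others lost them in 3 (Sesn2) to 7 (Ctns and Foxo1) of the 8 fits. In null mice Scpep1 alone was called, which is 0.901% of the 111 genes against 0.471% of all genes (0.47 ± 0.07, adjusted p = 0.014), though not without null animal KO-122 (0.0891) nor with the null groups fitted alone (0.161). The interaction called Atp6v0e, a membrane subunit of the proton pump, again 0.901% of the 111 genes, against 0.898% of all genes (-0.39 ± 0.09, adjusted p = 0.0493), a call lost in 13 of 15 fits with 1 animal left out.

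Between genotypes under corn oil, 3 of the 111 genes were higher in null mice and 1 was lower (3.6%, against 1.19% of all genes). Higher were Cd63, a tetraspanin of late endosomes (0.88 ± 0.17, adjusted p = 0.0173), Sesn2 (0.45 ± 0.08, 0.00608) and the autophagy gene Uvrag (0.41 ± 0.09, 0.0335), and lower was the sorting receptor Sort1 (-0.58 ± 0.13, 0.0391). Sesn2 kept its call without each animal in turn, and the others lost theirs in 4 to 7 of 8 fits. Under DEHP 15 were higher and 6 lower in null mice, which is 18.9% of the 111 genes against 10.7% of all genes. Gm2a, the activator protein that presents gangliosides to β-hexosaminidase, was 0.74 ± 0.10 higher (1.67-fold, adjusted p = 0.000176). The asparaginyl endopeptidase Lgmn was 0.61 ± 0.11 higher (0.00228), and Naglu, which acts on heparan sulfate, 0.34 ± 0.07 higher (0.00628). Tpcn1 and Clcn7 were 0.40 ± 0.07 and 0.32 ± 0.08 higher. Lower in null mice under DEHP were the ubiquitin-like proteins Map1lc3a (-0.54 ± 0.08, 0.000617) and Gabarapl2 (-0.39 ± 0.08, 0.00566), the protease Ctsf (-0.36 ± 0.06, 0.00159) and Atp6v0e (-0.40 ± 0.06, 0.000909). These 9 genes kept their calls without each animal in turn, as did Atp6ap1 and Uvrag, and the other 10 called genes lost theirs in 1 to 6 of 7 fits.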

How the data were processed

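Liver RNA of 15 mice was measured on 15 single-colour arrays, after conversion to biotin-labelled cDNA with an Affymetrix GeneChip kit, per the labels' protocols. The authors deposited linear intensity values (1.77 to 23336.67) that already share a common scale, by a method not given in the sources used here. Batches and scan times are not given, and 0 pairs of arrays were identical. Log2 was taken with no further scaling. The 35494 probe sets divided into 21789 annotated with 1 gene symbol, 1621 with several and 12084 with none, and the 21789 gave 19938 genes. With limma 3.58.1, group means were estimated from the 15 arrays together (R 4.3.3; residual df 11, prior df 4.68), with Benjamini-Hochberg adjustment and a threshold of 0.05. The model was tested on simulated data first. Alternatives were quantile normalization, median centring, leaving out dim genes (mean log2 under 5.96), the mean of probe sets, a trended robust spread, fitting only the groups compared, and leaving out each animal. Members and lists were chosen with earlier results of these data known. Named were the members called in any contrast (14), 5 fixed ones, and up to 4 called genes per wider list and contrast. Tables used Python 3.11.15, pandas 2.3.3 and numpy 2.4.6, and figures matplotlib 3.10.9. The number of arrays limits the precision. The p-values rest on a spread between animals pooled over the 4 groups, and take the animals as independent. Nothing in the labels excludes shared litters or cages, which these p-values would not account for.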

Additional observations from a re-analysis of the deposited data

Results flagged for a closer look

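Single animals stood apart from the rest of their group in 8 of the 72 groups of 4 animals examined by Dixon's criterion, where chance flags about 1 in 20. Under DEHP in wild-type mice, Tpp1 was 9.45 in animal 59 against 9.66 to 9.70 in the others. Ulk1 was 8.43 in animal 58 of that group against 8.26 to 8.27, and Map1lc3b was 10.39 in the same animal against 10.03 to 10.05. The median deviation of the glycosidases was 0.053 in animal 57 against 0.123 to 0.132. Among wild-type controls animal 53 had Lipa at 10.79 against 10.56 to 10.60, and a membrane protein median of 0.048 against -0.004 to 0. Among null controls Tfeb was 6.48 in animal KO-116 against 6.39 to 6.40, and the membrane protein median was 0.106 in animal KO-118 against -0.018 to 0.001.

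The DEHP effect differed between genotypes, null minus wild type, for the proton pump subunit gene Atp6v0e (-0.39 ± 0.09, adjusted p = 0.0493 by limma). This was 0.901% of the 111 genes of the wider lists, against 0.898% of all genes. The call was lost in 13 of 15 fits with 1 animal left out (adjusted p up to 0.109). The DEHP effect also differed for the PPARα targets Cyp4a10 (-3.18), Cyp4a14 (-4.84), Ehhadh (-2.60) and Acot1 (-2.97), and for the CAR target Cyp2b10, where the effect was larger in null mice (1.09). Null controls were lower than wild-type controls in Cyp4a10 (-3.43) and Cyp4a14 (-3.29). Acot1 instead averaged 8.75 in null controls, higher than the 7.195 of wild-type controls (adjusted p = 0.00689 by limma). Ehhadh was not called between the controls (-0.15). Cyp2b10 averaged 6.97 in null controls, lower than the 8.20 of wild-type controls (adjusted p = 0.000269 by limma). Under DEHP it averaged 8.52 in null and 8.66 in wild-type mice (adjusted p = 0.699).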

How the results depend on the processing

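No paired analysis was possible because the groups share no animal numbers. The alternative settings kept the direction of every called difference of the 36 genes, and the calls moved as follows. For DEHP in wild-type mice 5 genes were higher and 0 lower as reported. Quantile normalization gave 3 higher and 3 lower, median centring 4 and 0, and leaving out dim genes 9 and 2. A trended robust spread gave 7 and 0, fitting only the groups compared 3 and 0, and leaving out each animal 2 to 6 higher and 0 lower. The 6 came without wild-type DEHP animal 59 and the 2 without control 52 or DEHP animal 56 or 57. In null mice, with 1 higher, median centring and fitting only the groups compared gave 0, leaving out dim genes 3, a trended robust spread 2, and leaving out each animal 0 to 1. The number of estimates above 0 in null mice was 28 to 33 of 36 over these settings and left-out animals. The interaction had 1 higher gene, Ctsa, with dim genes left out and with a trended robust spread. For null over wild type under DEHP 9 genes were higher and 2 lower as reported. Here quantile normalization gave 8 higher and 3 lower, median centring 6 and 2, and leaving out dim genes 11 and 3. A trended robust spread gave 10 and 2, fitting only the groups compared 5 and 1, and leaving out each animal 3 to 7 higher and 1 to 2 lower. Under corn oil every setting gave 0. Of the called differences of members recomputed without leaving out an animal, 85 kept their call and 17 lost it (8 with only the groups compared, 6 with median centring, 3 with quantile normalization), and of those with an animal left out 71 kept it and 53 lost it. For called genes of the wider lists 188 kept and 20 lost it, and 166 kept and 99 lost it with an animal left out. Signs of uncalled estimates were followed for 8 named genes in each genotype's DEHP comparison (Ctsd, Ctsl, Lamp1, Lamp2, Tfeb, Sqstm1, Map1lc3b and Ulk1), and not gene by gene for the rest. Those that turned in null mice were Lamp1 (-0.063) and Lamp2 (-0.08) after quantile normalization, Lamp2 without control KO-116 or KO-117 (-0.01 each) or DEHP animal KO-123 (-0.057), Tfeb without DEHP animal KO-122 (0.039) and Ulk1 without control KO-115 (-0.002), and in wild-type mice Sqstm1 without DEHP animal 59 (0.017). Over all fits without 1 animal these estimates ran from -0.055 to 0.017 for Sqstm1, from -0.057 to 0.047 for Lamp2, from -0.083 to 0.039 for Tfeb and from -0.002 to 0.162 for Ulk1. Leaving out dim genes tests 9969 genes in place of 19938, which lightens the adjustment. Fits of only the groups compared and fits without an animal have fewer arrays, and the cause of the other moves was not tested. Genes called over the whole array numbered 680 to 1101 for DEHP in wild-type mice and 34 to 427 in null mice across the scaling and filter settings, against 770 and 94 as reported. They numbered up to 570 against 179 for the interaction, and 1848 to 2766 against 2133 for null over wild type under DEHP. All were fewest with median centring and most with dim genes left out. Without null animal KO-122 the count for DEHP in null mice was 9.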
